A study of Drosophila melanogaster with 26 samples.

Results

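The 10 genes described here encode regulators of actin in the egg chamber of *Drosophila melanogaster*: *kel*, *hts*, *cher*, *Src64B*, *chic*, *qua*, *sn*, *capu*, *spir* and *sqh*. They were chosen by name for their known roles, though with earlier results of these data known. Each matched 1 of the 15340 gene entries in every table of ovary RNA. All 10 also passed the filter on low values in every comparison, with between 557 and 24879 reads per gene and library, so none was lost to low coverage. In short, with germline NSL1 RNAi or NSL3 RNAi the nurse cell bundling genes *qua* and *sn* fell while *cher*, *chic* and *sqh* rose, and with NSL2 RNAi no member passed the 2-fold criterion.

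In the fly egg chamber, nurse cells and the oocyte are sister cells that stay joined by ring canals, intercellular bridges with a robust rim of actin filaments. Late in oogenesis the nurse cells build actin bundles that run inward to the nucleus, and myosin II contracts them so that their cytoplasm passes through the ring canals into the oocyte. Mutants of the bundle and ring canal genes are known for incomplete transfer and small eggs, and *capu* and *spir* mutants for premature streaming of the oocyte cytoplasm.

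Ovary RNA was compared between NSL1 RNAi, NSL2 RNAi, NSL3 RNAi and *white* RNAi, with 3 libraries per group and 12 in all. In every group *nanos*-GAL4, which is active in germline cells, drove a hairpin, so that the *white* RNAi controls also carried a driver and a hairpin, here against an eye pigment gene. The labels give Bloomington stock 58328 for NSL1, Bloomington stock 58162 for NSL2, Vienna stock 108002 for NSL3 and Bloomington stock 35573 for *white*. The study's list of fly lines names a different NSL3 stock, and the driver it lists also carries UAS-Dcr-2. Each hairpin came from a single line, and the F1 females received yeast for 3 to 5 days before dissection. Whole ovaries were used, so somatic cells, in which the hairpin was not driven, are part of each library. The study describes NSL1 and NSL3 RNAi ovaries as atrophied and NSL2 RNAi ovaries as normal in shape. It also names virgin *white* RNAi females as the control for NSL1 and NSL3 RNAi, but the control columns in all 3 tables match the record of the standard *white* RNAi ovary, and no virgin library was used here.

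Depth was 12482452 to 20911687 reads in the knockdown libraries and 20820820 to 23021900 reads in the *white* RNAi libraries. The targeted genes were at 54.3% of the *white* RNAi mean for *wah* (the gene of NSL1), 68.8% for *dgt1* (NSL2) and 52.9% for *Rcd1* (NSL3), each lower at a limma adjusted p under 0.05. Marker genes of other cells differed strongly. The summed reads of 9 muscle genes, on a scale shared by all libraries, were 240161 to 304959 in NSL1 RNAi, 2940 to 4807 in NSL2 RNAi, 251142 to 561469 in NSL3 RNAi and 2387 to 3252 in *white* RNAi libraries. Those of 10 follicle cell genes were 38019 to 44493 in NSL1 RNAi, 78298 to 155436 in NSL2 RNAi, 23405 to 42742 in NSL3 RNAi and 3314 to 16403 in *white* RNAi. Those of 11 germline genes were 36550 to 43061 in NSL1 RNAi, 112358 to 126223 in NSL2 RNAi, 30912 to 85834 in NSL3 RNAi and 139253 to 140970 in *white* RNAi, and this sum was lowest in NSL1 and NSL3 RNAi. The germline gene *grk* went the other way with NSL3 RNAi (log2 fold change 0.70, adjusted p = 0.00677). With NSL2 RNAi 6 follicle cell genes were over 2-fold higher (adjusted p under 0.05), most of all *dec-1* (log2 fold change 5.73), *Cp36* (4.12) and *Vm26Ab* (3.92). *Fas3*, *mirr*, *ct* and *eya* (0.28 to 0.72) did not pass there (adjusted p 0.0872 to 0.442). With NSL1 RNAi 9 were over 2-fold higher, *Fas3*, *ct* and *eya* by 4.38, 3.88 and 3.97, but not *Cp36* (0.08). The order of the follicle cell sums was thus not that of every single gene. Hemocyte, fat body and neuronal markers were also higher in every NSL1 and NSL3 RNAi library than in any *white* RNAi library, and 2 of the 9 hemocyte markers (*He* and *lz*) were at 0 in *white* RNAi. In whole ovaries, fewer cells of a type and less RNA per cell cannot be told apart, and the part of these cell types in the results below was not tested.

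Across the members, NSL1 RNAi gave 3 genes that rose (*cher*, *chic* and *sqh*) and 3 that fell (*qua*, *sn* and *spir*). NSL3 RNAi gave the same 3 that rose and 2 that fell (*qua* and *sn*). A gene counts as risen or fallen here when limma gave it a Benjamini-Hochberg adjusted p under 0.05 and a log2 fold change beyond 1 in size, where the fold change is the difference of log2(normalized reads + 1) between knockdown and *white* RNAi. These calls were frequent among all genes tested. With NSL1 RNAi 31.8% of 9083 genes rose and 20.4% fell, and with NSL3 RNAi 29.6% of 8898 genes rose and 14.6% fell, so that the number of members called was near the share of all genes. With NSL2 RNAi 0 of the 10 were called by limma, edgeR or DESeq2, against 8.46% of 8045 genes that rose and 1.17% that fell. In limma 5 members had an unadjusted p under 0.05 there, as did 47.8% of all genes tested. Without a minimum fold, 5 members were higher and 5 lower with NSL1 RNAi (41.1% and 48.0% of all genes), 1 higher and 4 lower with NSL2 RNAi (16.1% and 18.6%), and 5 higher and 4 lower with NSL3 RNAi (37.0% and 43.2%). Knockdown libraries that were all above or all below the controls were likewise frequent. With NSL1 RNAi 5 members lay above and 5 below, beside 41.6% and 48.9% of all genes. With NSL3 RNAi the numbers were 5 and 4, beside 38.9% and 46.9%, and with NSL2 RNAi 1 and 4, beside 23.4% and 29.4%. The median log2 fold change over the members was -0.15, -0.15 and 0.05 in the NSL1, NSL2 and NSL3 comparisons, beside -0.13, -0.04 and -0.12 over all genes tested. Rescaling the libraries by the median of ratios over genes placed the median of all genes at 0.02, -0.02 and -0.01, and no member changed direction under it.

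**Figure D1:**
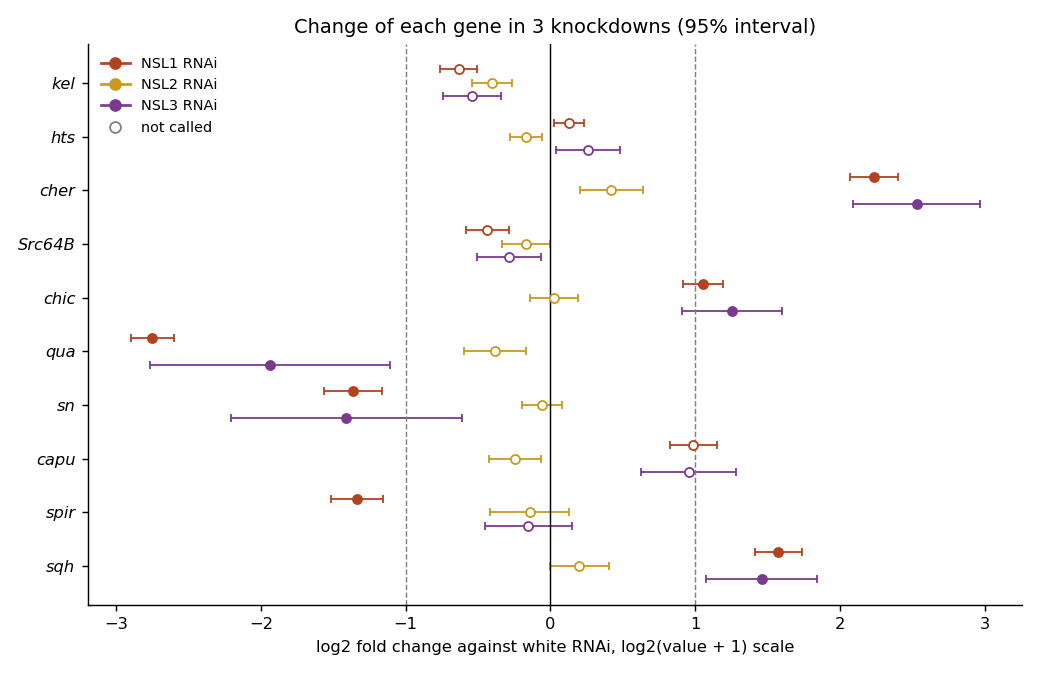
Log2 fold change of each gene against *white* RNAi (x axis, log2(value + 1) scale) with its 95% interval, for NSL1, NSL2 and NSL3 RNAi from top to bottom within each gene; filled points passed the call and dashed lines mark a log2 fold change of 1 in size. The interval of *qua* lies wholly below -1 with NSL1 RNAi (-2.90 to -2.60) and with NSL3 RNAi (-2.77 to -1.11), while all NSL2 RNAi points are open.

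With NSL1 and NSL3 RNAi the bundling genes *qua* and *sn* fell, while *chic* rose. *qua*, which encodes a villin-like bundling protein of the germline, had 870, 873 and 794 normalized reads in NSL1 RNAi, against 5782, 6001 and 5319 in *white* RNAi of that table. The NSL1 RNAi mean was 14.8% of the *white* RNAi mean, the lowest share of the 10 genes, and the groups were far apart. The log2 fold change was -2.75 ± 0.07 (SE, n = 3 against 3, limma adjusted p = 7.67e-09), and only 1.01% of the genes tested had a lower one. With NSL3 RNAi *qua* had 896, 2504 and 1106 normalized reads, against 5283, 5474 and 4820 in *white* RNAi. All 3 NSL3 RNAi libraries were below all controls, with replicate 2 much higher than the other two, and the log2 fold change was -1.94 ± 0.35 (adjusted p = 0.00209).

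*sn* encodes fascin, which packs actin filaments into tight parallel bundles. It had 1206, 1513 and 1310 normalized reads in NSL1 RNAi, against 3602, 3545 and 3202 in *white* RNAi, and 718, 2017 and 1132 in NSL3 RNAi, against 3291, 3234 and 2902 in *white* RNAi. The groups did not overlap in either comparison. *sn* fell by 1.36 on the log2 scale with NSL1 RNAi (SE 0.09, adjusted p = 8.04e-07) and by 1.41 with NSL3 RNAi (SE 0.34, adjusted p = 0.00647). The median log2 fold change of the 11 germline markers was -1.36 with NSL1 RNAi and -1.48 with NSL3 RNAi, close to the values of *sn*. *qua* lay below that median in both comparisons and within the range of the single markers, of which *nos* (-3.38 and -2.14) and *bcd* (-3.21 and -1.95) were lower still. *sn* overlaps the gene *sws* in the current annotation, and how reads were split between them is not given in the sources used here.

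*chic* encodes profilin, which supplies actin monomers to growing filaments in germline and somatic cells alike. In NSL1 RNAi it had 7220.0, 7818 and 6804 normalized reads, against 3600, 3485 and 3405 in *white* RNAi. In NSL3 RNAi it had 8374, 6039 and 8726, against 3289, 3179 and 3086 in *white* RNAi. Every library of both knockdowns was above every control. *chic* rose by a log2 fold change of 1.06 ± 0.06 with NSL1 RNAi (adjusted p = 3.66e-07) and 1.26 ± 0.15 with NSL3 RNAi (adjusted p = 0.00032), at 208% and 242% of the *white* RNAi means.

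**Figure D2:**
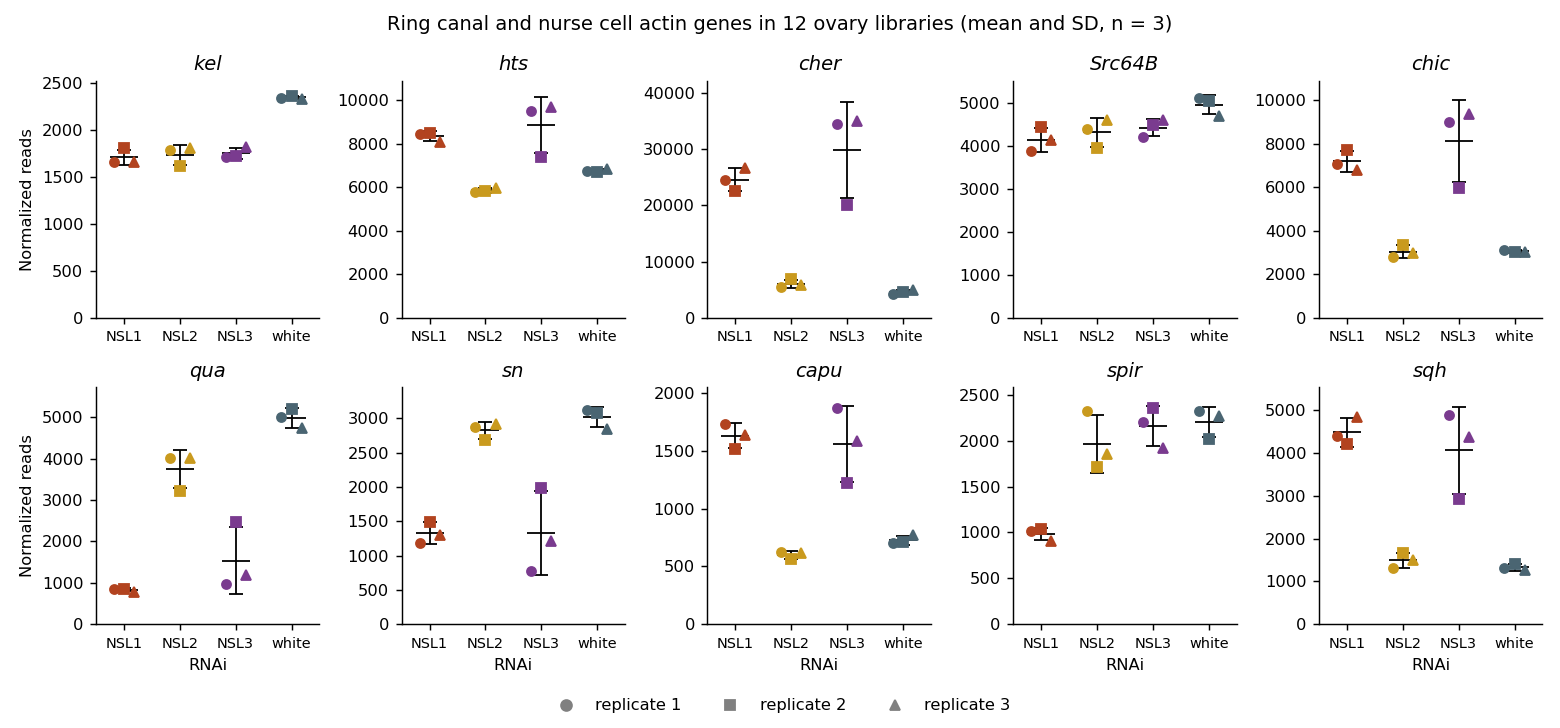
Normalized reads of each gene (y axis, from 0, rescaled together by the median of ratios over genes) in the NSL1, NSL2, NSL3 and *white* RNAi libraries, left to right; symbols are replicates, and black bars are the mean and SD of 3. *qua* and *sn* are lowest in NSL1 and NSL3 RNAi, *cher*, *chic*, *capu* and *sqh* are highest there, and *spir* is low in NSL1 RNAi alone of the 4 groups.

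The pair that builds the actin mesh of the oocyte separated. *spir* encodes Spire, an actin nucleator with which the formin Cappuccino, the product of *capu*, works. *spir* had 1034, 1046 and 910 normalized reads in NSL1 RNAi, against 2679, 2327 and 2549 in *white* RNAi. It fell by 1.34 on the log2 scale there (SE 0.08, adjusted p = 4.29e-07) and was at 39.6% of the *white* RNAi mean. With NSL3 RNAi it had 2046, 2396 and 1786 normalized reads, against 2447, 2123 and 2310 in *white* RNAi. These groups overlapped, and the log2 fold change of -0.15 (95% interval -0.45 to 0.15, adjusted p = 0.304) did not pass. The difference between the 2 knockdowns was itself tested on jointly scaled reads: *spir* was lower in NSL1 RNAi than in NSL3 RNAi by a log2 difference of -1.13 ± 0.12 (adjusted p = 8e-05). It was the only member called in that contrast, in which 10.8% of 9097 genes were called in either direction.

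*capu* had 1768, 1539 and 1645 normalized reads in NSL1 RNAi, against 810, 818 and 867 in *white* RNAi, and 1738, 1237 and 1473 in NSL3 RNAi, against 740.0, 746 and 786 in *white* RNAi. The groups did not overlap, and the means were 198% and 196% of *white* RNAi. The log2 fold changes of 0.99 ± 0.07 (adjusted p = 1.47e-06) and 0.96 ± 0.14 (adjusted p = 0.000938) lay just under the 2-fold criterion. With the libraries rescaled by the median of ratios over genes they were 1.13 and 1.06, and *capu* was then called in both comparisons.

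Within each library, the ratio of *capu* to *spir* reads was 1.71, 1.47 and 1.81 in NSL1 RNAi, 0.269, 0.328 and 0.333 in NSL2 RNAi, 0.849, 0.516 and 0.825 in NSL3 RNAi and 0.302, 0.351 and 0.340 in *white* RNAi. Such a ratio needs no scaling between libraries, but it is not per length and says nothing of which gene has more transcripts. It was 5.01-fold higher in NSL1 RNAi and 2.16-fold higher in NSL3 RNAi than in *white* RNAi, without overlap, and overlapped *white* RNAi in NSL2 RNAi. With 3 libraries against 3 the two-sided exact permutation test cannot go below p = 0.1, which both reached. The ratio of *qua* to *sn* was lower than in *white* RNAi (1.61 to 1.69) in every library of NSL1 RNAi (0.577 to 0.721), NSL2 RNAi (1.20 to 1.40) and NSL3 RNAi (0.977 to 1.25). Its exact permutation p was also 0.1 in each, the floor of the test, so these differences are given as non-overlapping values and not as calls.

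**Figure D3:**
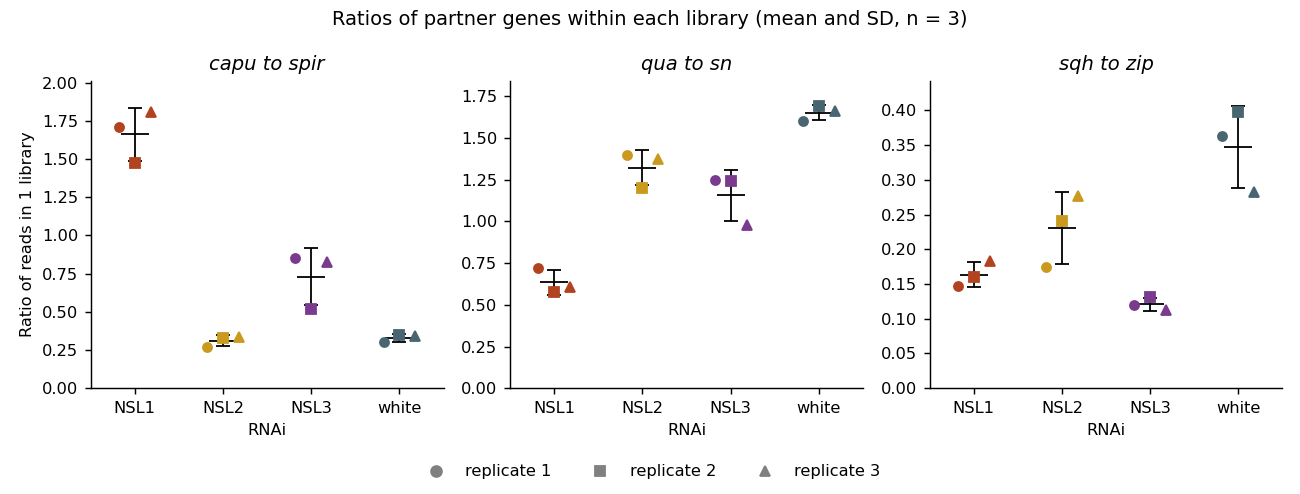
Ratio of reads of 2 genes within 1 library (y axis, from 0) for *capu* to *spir*, *qua* to *sn* and *sqh* to *zip*, in NSL1, NSL2, NSL3 and *white* RNAi; symbols are replicates and black bars the mean and SD of 3. The *capu* to *spir* ratio averages 1.66 in NSL1 RNAi, 0.310 in NSL2 RNAi, 0.730 in NSL3 RNAi and 0.331 in *white* RNAi.

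Of the 4 ring canal genes, *cher* changed by far the most. It encodes filamin, which crosslinks actin at the ring canal rim and also acts in follicle cells and muscle. *cher* had 24949, 22847 and 26697 normalized reads in NSL1 RNAi, against 4912, 5328 and 5559 in *white* RNAi, and 32078, 20325 and 32523 in NSL3 RNAi, against 4488, 4860.3 and 5038 in *white* RNAi. Every knockdown library held at least 4 times the mean of its controls. The log2 fold changes were 2.24 ± 0.07 (adjusted p = 2.23e-08) and 2.53 ± 0.19 (adjusted p = 3.43e-05). Among all genes tested *cher* stood at the 75.7th percentile of genes with NSL1 RNAi and the 79.9th with NSL3 RNAi. The muscle markers rose far more, with a median log2 fold change of 6.54 and 7.52, and the follicle cell markers had medians of 3.34 and 2.81. The protein-coding genes *CG34278*, *CG42779*, *CG45079* and *cal1* overlap *cher* in the current annotation, so part of its reads may be shared.

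*kel* encodes Kelch, an actin crosslinker of the ring canal and a substrate adaptor of the Cullin-3 ubiquitin ligase. It had 1693, 1825 and 1666 normalized reads in NSL1 RNAi, against 2698, 2723 and 2621 in *white* RNAi, and 1594, 1745 and 1692 in NSL3 RNAi, against 2466, 2484 and 2375 in *white* RNAi. In NSL2 RNAi it had 2255, 2016 and 2251, against 2888, 2874 and 2851 in *white* RNAi. Each group lay below its controls, at 64.5%, 68.7% and 75.7% of their mean for NSL1, NSL3 and NSL2 RNAi. The log2 fold changes of -0.63 ± 0.06, -0.54 ± 0.08 and -0.40 ± 0.06 passed the adjusted p (5.16e-06, 0.00117 and 0.00275) but not the 2-fold criterion. Between the knockdowns the *kel* levels could not be separated, with log2 differences between -0.04 and 0.02 and 95% intervals of equal width, such as -0.18 to 0.11 for NSL1 minus NSL3 RNAi.

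*hts* encodes the adducin-like proteins of the fusome, the membranous precursor that links cyst cells, and the HtsRC protein of the ring canal rim. It had 8584, 8607 and 8108 normalized reads in NSL1 RNAi, against 7754, 7711 and 7674 in *white* RNAi, and 8817, 7483 and 9009 in NSL3 RNAi, against 7085, 7035 and 6954 in *white* RNAi. In NSL2 RNAi it had 7287, 7277 and 7466, against 8298, 8140.3 and 8348 in *white* RNAi. The groups did not overlap, with NSL1 and NSL3 RNAi above and NSL2 RNAi below the controls, but the log2 fold changes of 0.13 ± 0.05, 0.26 ± 0.09 and -0.17 ± 0.05 for NSL1, NSL3 and NSL2 RNAi were small (adjusted p = 0.0264, 0.0359 and 0.0272). In the joint fit *hts* was higher in NSL1 RNAi than in NSL2 RNAi by 0.51 ± 0.09 and in NSL3 RNAi than in NSL2 RNAi by 0.59 ± 0.09 on the log2 scale (adjusted p = 0.000382 and 0.00018), both under 2-fold.

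*Src64B* encodes a Src family tyrosine kinase needed for ring canal growth. It had 3956, 4495 and 4153 normalized reads in NSL1 RNAi, against 5913, 5833 and 5296 in *white* RNAi, and 3913, 4558 and 4277 in NSL3 RNAi, against 5403, 5321 and 4799 in *white* RNAi. Both groups lay below their controls without overlap, at 74.0% and 82.1% of the mean. The log2 fold changes were -0.44 ± 0.07 (adjusted p = 0.000206) and -0.28 ± 0.09 (adjusted p = 0.0256), under 2-fold. *kel* and *Src64B* changed least of the 4 members that passed the adjusted p as lower with both NSL1 and NSL3 RNAi, and both lay well above the germline marker median.

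*sqh* encodes the regulatory light chain of non-muscle myosin II, the motor that squeezes the nurse cells and is used in follicle cells as well. It had 4465, 4257 and 4867 normalized reads in NSL1 RNAi, against 1512, 1627 and 1417 in *white* RNAi, and 4544, 2980.0 and 4051 in NSL3 RNAi, against 1382, 1484 and 1284 in *white* RNAi. The knockdown libraries were all above the controls, with means at 298% and 279% of theirs. *sqh* rose by a log2 fold change of 1.58 ± 0.07 with NSL1 RNAi (adjusted p = 1.06e-07) and 1.46 ± 0.16 with NSL3 RNAi (adjusted p = 0.000262). Its partner *zip*, the myosin II heavy chain, rose more, by 2.65 ± 0.09 and 2.97 ± 0.20. With NSL2 RNAi *zip* was higher by 0.80 ± 0.14 (limma adjusted p = 0.00539), under 2-fold, beside 0.20 for *sqh* (adjusted p = 0.11). The ratio of *sqh* to *zip* reads was accordingly 0.148 to 0.184 in NSL1 RNAi, 0.112 to 0.131 in NSL3 RNAi and 0.175 to 0.277 in NSL2 RNAi, each below all *white* RNAi libraries (0.282 to 0.397), with an exact permutation p of 0.1 in each comparison.

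With NSL2 RNAi, in which the ovaries keep their shape, 5 members passed the adjusted p without reaching 2-fold: *kel* and *hts* (above), *cher*, *qua* and *capu*. *cher* had 6869, 8619 and 7235 normalized reads in NSL2 RNAi, against 5257, 5624 and 6047 in *white* RNAi, a log2 fold change of 0.42 ± 0.09 (adjusted p = 0.0133). *qua* had 5071, 4035 and 5010 in NSL2 RNAi, against 6188, 6335 and 5786 in *white* RNAi, a log2 fold change of -0.38 ± 0.09 (adjusted p = 0.0181). The direction of both was that seen with NSL1 and NSL3 RNAi, at a small fraction of the size, but all 3 comparisons share the same *white* RNAi libraries. *capu* had 788, 703 and 769 in NSL2 RNAi, against 867, 863 and 944 in *white* RNAi (log2 fold change -0.24 ± 0.08, adjusted p = 0.0415), lower where it was higher with NSL1 and NSL3 RNAi. *Src64B*, *chic*, *sn*, *spir* and *sqh* overlapped their controls in NSL2 RNAi, with log2 fold changes between -0.17 and 0.20 and adjusted p between 0.102 and 0.808. The widest of their 95% intervals was that of *spir* (-0.42 to 0.13), so a change of *spir* within that range stays possible.

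Between knockdowns, 6 of the 10 members differed in NSL1 minus NSL2 RNAi (41.5% of 9097 genes) and the same 6 in NSL3 minus NSL2 RNAi (36.1% of genes). They were *cher*, *chic*, *capu* and *sqh*, higher in NSL1 and NSL3 RNAi than in NSL2 RNAi, and *qua* and *sn*, lower. *cher* gave log2 differences of 2.03 ± 0.19 and 2.27 ± 0.19 (adjusted p = 2.41e-06 and 1.01e-06), and *qua* of -2.16 ± 0.26 and -1.40 ± 0.26 (adjusted p = 1.65e-05 and 0.000488). *kel* and *Src64B* did not pass in any of the 3 contrasts between knockdowns. Ordered by joint level, *qua* was the one member whose 4 groups were all apart: *white* RNAi was highest, then NSL2, NSL3 and NSL1 RNAi, with the *white* RNAi mean 5.97 times the NSL1 RNAi mean. *cher* ran NSL3, NSL1, NSL2 and *white* RNAi, a 6.47-fold range, and its NSL3 and NSL1 RNAi groups overlapped. For *kel* and *Src64B* the *white* RNAi group stood above 3 knockdown groups that overlapped each other, over ranges of 1.37-fold and 1.20-fold. For *Src64B* this separation depends on the scaling, since on the deposited scale its NSL2 RNAi values (up to 5770.1) reached the lowest control (5762).

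NSL3 RNAi replicate 2 was the library nearest to *white* RNAi for 10 of 10 members, as it was for 80.2% of all genes tested in that table. Its *qua* level was 48.2% of the *white* RNAi mean, against 17.3% and 21.3% in the other two libraries, and its *sn* level was 64.2%, against 22.9% and 36.0%. The 11 germline markers summed to 85834 in that library and to 30912 and 50278 in replicates 1 and 3, and the 9 muscle markers to 251142, against 561469 and 481327. Without it the log2 fold changes were -2.38 for *qua*, -1.80 for *sn*, 2.75 for *cher* and 1.08 for *capu*, and *capu* was then called, giving 4 members that rose and 2 that fell. *spir* without it was at -0.26 (adjusted p = 0.0274), still under 2-fold. In NSL1 RNAi the libraries lay close together, with replicate 2 nearest to *white* RNAi for 8 of 10 members and for 43.1% of all genes. In NSL2 RNAi replicate 2 was the library farthest from *white* RNAi for 10 of 10 members. The share of all genes for which it was farthest was not computed, so this count is not read as particular to the members. It was nearest for 0 of 10 members and for 15.5% of all genes tested in that table. This library also had the highest follicle cell marker sum (155436, against 97295 and 78298). Without it the NSL2 RNAi log2 fold changes were -0.27 for *qua*, 0.32 for *cher* and -0.19 for *capu*, and *capu* no longer passed the adjusted p (0.0958).

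**Figure D4:**
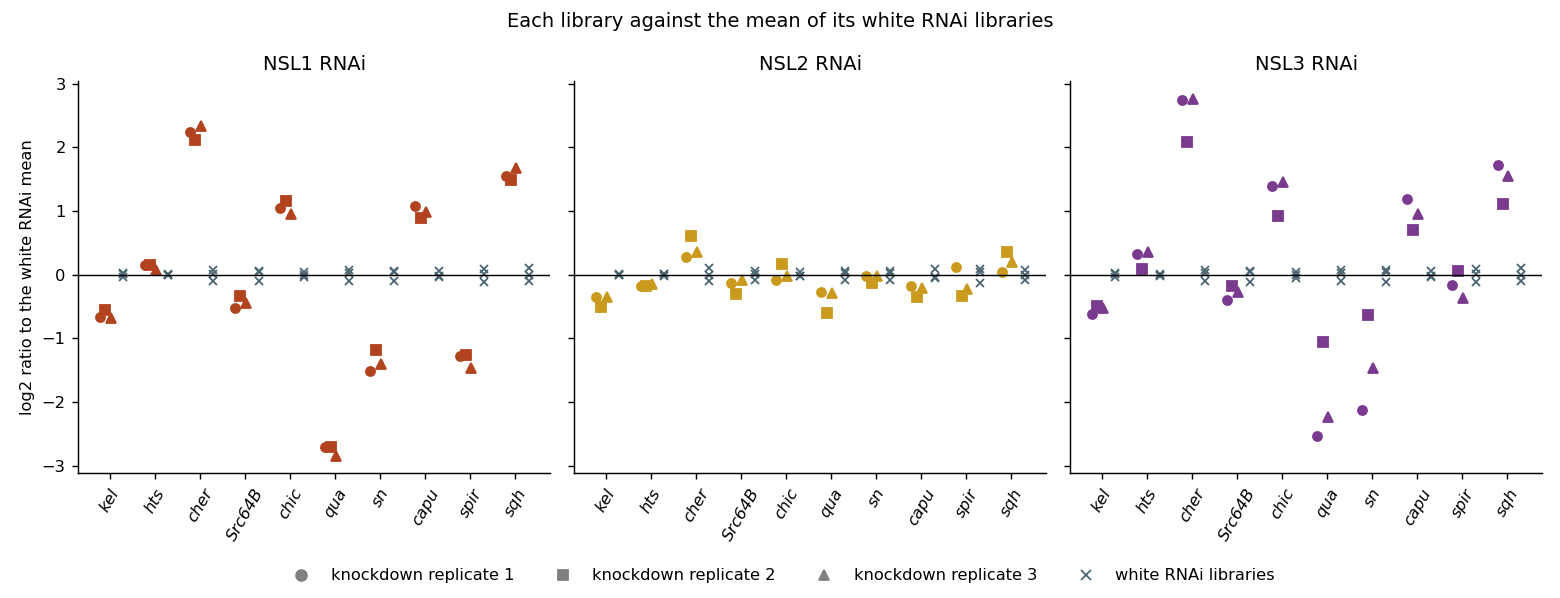
Log2 ratio of each knockdown library to the mean of its *white* RNAi libraries (y axis) for the 10 genes, in NSL1, NSL2 and NSL3 RNAi; circles, squares and triangles are replicates 1, 2 and 3, and crosses are the single *white* RNAi libraries. In NSL3 RNAi the square is the knockdown symbol closest to 0 for all 10 genes. In NSL2 RNAi the knockdown symbols lie between -0.60 (*qua*, replicate 2) and 0.61 (*cher*, replicate 2).

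The wider actin machinery was read from 4 lists of 49 genes tested. With NSL1 RNAi 10 of them rose (20.4% of the 49, against 31.8% of all genes) and 7 fell (14.3% against 20.4%). With NSL3 RNAi 11 rose (22.4% against 29.6%) and 5 fell (10.2% against 14.6%), so in both comparisons called genes were less frequent in these lists than among all genes, a description without a test. With NSL2 RNAi 0 were called by limma, where 21 (against 47.8% of all genes) had an unadjusted p under 0.05. edgeR and DESeq2 called 0 of them with NSL2 RNAi as well. Their median log2 fold changes were 0.14, 0.27 and -0.08 with NSL1, NSL3 and NSL2 RNAi.

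Among 18 ring canal partners, mostly proteins of the cytokinetic ring and of branched actin, 0 rose and 4 fell with NSL1 RNAi, 1 rose and 4 fell with NSL3 RNAi, and 0 were called with NSL2 RNAi. The 4 that fell are 22.2% of the list, beside 20.4% of all genes with NSL1 RNAi and 14.6% with NSL3 RNAi. Those that rose are 0% of the list with NSL1 RNAi and 5.56% with NSL3 RNAi, beside 31.8% and 29.6% of all genes. *tum*, a subunit of centralspindlin, fell by 1.91 on the log2 scale in both (1359 to 1682 normalized reads in NSL1 RNAi, against 5254 to 6098 in *white* RNAi). *sti*, the citron kinase of the midbody ring, fell by 1.48 and 1.82 with NSL1 and NSL3 RNAi. The kinase gene *Lkb1* fell by 1.19 with NSL1 RNAi and was at -0.83 with NSL3 RNAi, under 2-fold. *pav*, the kinesin of centralspindlin, fell by 1.76 with NSL3 RNAi and was at -0.96 with NSL1 RNAi, just under 2-fold. The one that rose was *Arpc1*, a subunit of the Arp2/3 complex, with a log2 fold change of 1.25 with NSL3 RNAi, beside 0.94 (adjusted p = 3.57e-06, under 2-fold) with NSL1 RNAi.

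Of 6 fusome partners of *hts*, 3 rose and 1 fell with NSL1 RNAi (beside 31.8% and 20.4% of all genes) and 3 rose with NSL3 RNAi (beside 29.6% of all genes). The 3 were *beta-Spec* and *alpha-Spec*, the spectrins that line the fusome and the membranes of somatic cells, and *shot*, a linker of actin and microtubules. Their log2 fold changes were 2.61, 2.19 and 1.80 with NSL1 RNAi and 3.02, 2.60 and 2.36 with NSL3 RNAi, where that of *hts* itself stayed at 0.13 and 0.26. *bam*, the switch gene of the dividing cystoblast, fell to 315 to 342 normalized reads in NSL1 RNAi, against 817 to 1059 in *white* RNAi. Its log2 fold change of -0.54 with NSL3 RNAi did not pass (limma adjusted p = 0.191). With NSL2 RNAi *bam* was higher, by 0.40 (adjusted p = 0.0163), under 2-fold.

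Of 17 genes of filament assembly and turnover, 3 rose in both NSL1 and NSL3 RNAi: *tmod* (tropomodulin, 1.74 and 2.16), the GTPase gene *Rho1* (1.48 and 1.95) and *ena* (Enabled, 1.28 and 1.54). These 3 are 17.6% of the list, beside 31.8% and 29.6% of all genes. With NSL1 RNAi 2 fell (11.8% of the list, beside 20.4% of all genes) and with NSL3 RNAi 1 fell (5.88%, beside 14.6%). Among 8 genes of myosin II and its regulators 4 rose and 0 fell in both, beside the same 31.8% and 29.6% of all genes that rose. The largest was *sqa*, a kinase gene of the *sqh* pathway, at 503 to 691 normalized reads in NSL1 RNAi, against 13.8 to 28.7 in *white* RNAi, a log2 fold change of 4.81 ± 0.26 (adjusted p = 3.02e-07) and of 5.41 ± 0.36 with NSL3 RNAi. *Mlc-c*, the essential light chain, rose by 1.52 with NSL1 RNAi and 1.59 with NSL3 RNAi, and *Mbs*, the targeting subunit of myosin phosphatase, by 1.13 and 1.78. The median log2 fold change of the myosin list was 0.73 with NSL1 RNAi and 1.10 with NSL3 RNAi, whereas that of the ring canal partners was -0.25 and -0.21.

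**Figure D5:**
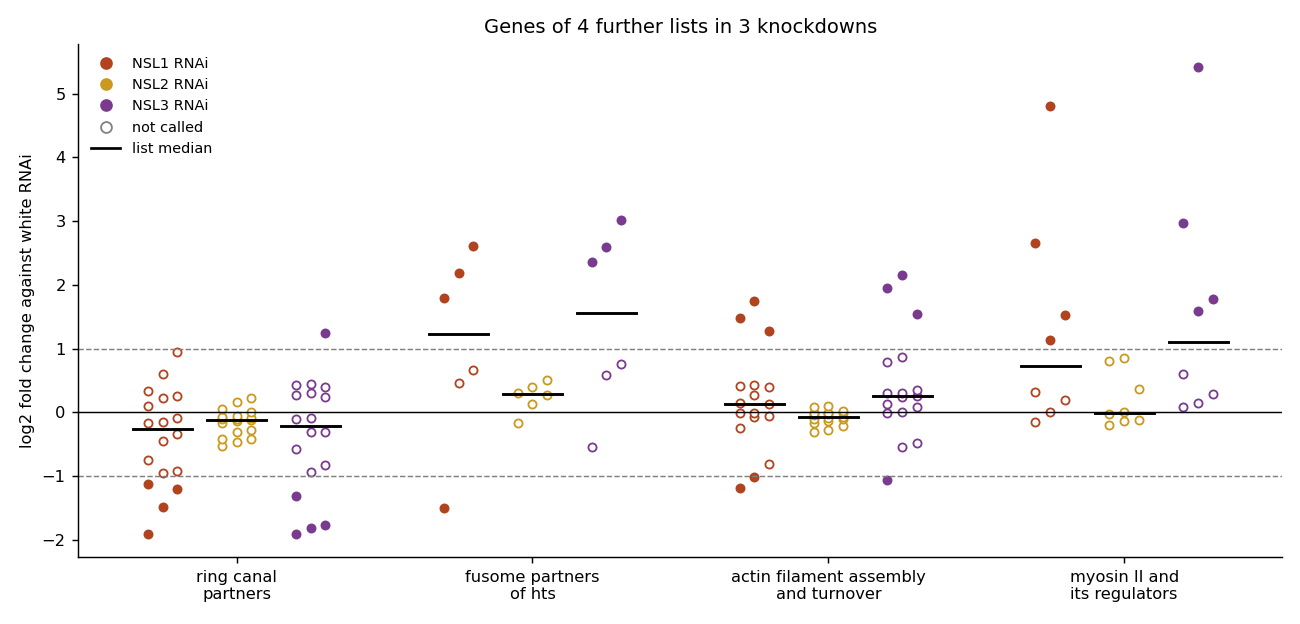
Log2 fold change against *white* RNAi (y axis) of the genes in 4 further lists, for NSL1, NSL2 and NSL3 RNAi from left to right within each list; filled points were called, black lines are list medians and dashed lines mark a log2 fold change of 1 in size. Called genes of the myosin list all lie above 1, called ring canal partners lie below -1 apart from *Arpc1* with NSL3 RNAi, and no NSL2 RNAi point is filled.

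The gene whose level over the 12 libraries was most like that of each member, among 7857 genes with a mean of at least 50 reads, was found by Pearson's r of log2 levels. The 12 libraries form 4 groups, so these values mainly follow the group differences and are given as a description. For *qua* it was *Tl* (r = 0.999), which encodes the Toll receptor supplied to the egg, and for *sn* it was *ovo* (r = 0.996), a germline transcription factor gene. For *cher* it was *luna* (r = 0.998), for *chic* *vig* (r = 0.996), for *capu* *CG5455* (r = 0.991) and for *sqh* *CG17646* (r = 0.996). The other members had lower values: *flfl* for *kel* (r = 0.976), *CG5830* for *hts* (r = 0.981), *Pak* for *Src64B* (r = 0.941) and *S1P* for *spir* (r = 0.974). Between members, *cher* and *chic* had r = 0.98, *cher* and *qua* r = -0.94, and *kel* and *Src64B* r = 0.87.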

How the data were processed

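Total RNA of *Drosophila melanogaster* ovaries was sequenced after RiboZero depletion with a stranded kit. Per the study's methods, reads were aligned with STAR in piPipes and counted with featureCounts or eXpress; the submitters' processing notes name DESeq2 and dm3. Versions, and the strand used in counting, are not given in the sources used here. The values are a signal that the authors deposited: reads divided by a size factor of each library. The study names spike-in size factors. The authors' own fold change and p-value columns were not used, and 0 library columns went unused. Dividing by the step of each library gave whole reads for 100% of values, to within 1e-06, and *white* RNAi reads were identical in the 3 tables. Columns numbered 2 and 3 were read as the other crosses of the group, since the labels number replicate 1 only. No chromatin or small RNA file was used.

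Each table was tested alone with limma 3.58.1 in R 4.3.3, on log2(value + 1) and with trended variance, over all genes, summed transposon families, repeats and piRNA clusters averaging 10 or more, with Benjamini-Hochberg adjustment over all of them. Calls needed an adjusted p under 0.05 and a 2-fold change. Differences between knockdowns came from 1 limma fit of recovered reads, scaled by the median of ratios over genes. Alternatives were edgeR 4.0.16 and DESeq2 1.42.0 on recovered reads, 2 other scalings, pseudocounts of 0.5 and 5, no minimum or a minimum of 50, other thresholds, a replicate block and each library left out. Each limma p-value sets a group difference against the spread between libraries within groups, moderated over all features. The test was tried on simulated data. Python 3.11.15, numpy 2.4.6, pandas 2.3.3 and matplotlib 3.10.9 did the rest. Overlapping genes came from a RefSeq table of a newer assembly. Of the lists, *Frl* matched no single entry.

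Members and gene lists were chosen with earlier results of these data known. Named are all 10 members, in each further list up to 3 called genes with the largest log2 fold change per comparison, and for each member its most similar gene; *Arpc1* and *bam* were named after their values were seen.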

Additional observations from a re-analysis of the deposited data

Results flagged for a closer look

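The effects of the knockdowns on 7 members differed between genotypes at an adjusted p under 0.05 and beyond 2-fold, in the limma fit of all 12 libraries. Such differences were common, with 41.5% of 9097 genes called in NSL1 minus NSL2 RNAi, 36.1% in NSL3 minus NSL2 RNAi and 10.8% in NSL1 minus NSL3 RNAi. As log2 differences, NSL1 minus NSL2 RNAi and NSL3 minus NSL2 RNAi were 2.03 and 2.27 for *cher*, 1.24 and 1.39 for *chic*, 1.44 and 1.35 for *capu*, 1.59 and 1.42 for *sqh*, -2.16 and -1.40 for *qua*, and -1.09 and -1.20 for *sn*. *spir* differed in NSL1 minus NSL3 RNAi, by -1.13. The summed muscle, germline and follicle cell markers of NSL1 and NSL3 RNAi did not overlap those of NSL2 RNAi. Between NSL1 and NSL3 RNAi, where *spir* differed, each of these sums overlapped, as did those of the fat body and neuronal markers. The summed hemocyte markers did not overlap there, at 42992 to 55780 in NSL1 RNAi and 60442 to 133645 in NSL3 RNAi. The part of these cell types in the differences was not tested.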

How the results depend on the processing

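Over 450 recomputed member fold changes, 439 kept their direction and their side of the call. In 10, *capu* passed 2-fold: with NSL1 RNAi at 1.13 (median of ratios over genes), 1.03 (total gene reads), 1.06 (edgeR), 1.15 (DESeq2), 1.02 (without *white* RNAi replicate 3) and 1.04 (without NSL1 RNAi replicate 2), and with NSL3 RNAi at 1.06, 1.03 and 1.12 (median of ratios over genes, edgeR and DESeq2) and 1.08 (without NSL3 RNAi replicate 2). *chic* with NSL2 RNAi, at 0.02 with all libraries, lay between -0.049 and 0.079 when each library was left out, and reversed without NSL2 RNAi replicate 2. Of the 49 further genes 1 rose with NSL2 RNAi without *white* RNAi replicate 3, against 0 with all libraries. Small changes moved by over 1.5 times for *hts* (0.13 with NSL1 RNAi, 0.27 by median of ratios, 0.20 in edgeR and 0.29 in DESeq2; 0.26 with NSL3 RNAi, 0.41 in DESeq2) and *Src64B* (-0.44 with NSL1 RNAi, -0.27 in DESeq2; -0.28 with NSL3 RNAi, -0.18 by median of ratios and -0.14 in DESeq2). Without a fold minimum the members higher and lower were 5 and 5 with NSL1 RNAi, 1 and 4 with NSL2 RNAi and 5 and 4 with NSL3 RNAi. Members that differed in NSL1 minus NSL3 RNAi numbered between 1 and 2 when each library was left out; the 2 came without NSL3 RNAi replicate 1.

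The replicate block changed no count of called members, but *hts* and *capu* with NSL2 RNAi and *hts* and *Src64B* with NSL3 RNAi no longer passed the adjusted p (0.109, 0.1, 0.07 and 0.055). Correlations of the deviations of equally numbered libraries ran from -0.44 to 0.23, and those of the other pairs from -0.38 to 0.37. With 3 libraries per group, each set against its own group mean, this check cannot decide whether the numbers pair the libraries. Groups of 3 libraries limit the detection of small changes, and depth limits none of the 10 genes.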
